A study of Rattus norvegicus with 12 samples.

Results

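The SLC25 family comprises the carrier proteins of the inner mitochondrial membrane. Its members were taken here as the rows of the deposited count table whose gene name is Slc25a followed by a number alone. The rule found 45 of the 30560 genes in the table, each name once, and all of them lie in the nuclear genome. Their RNA was counted in 12 libraries from the inner red portion of the gastrocnemius, a calf muscle, of 6 wild-type male Wistar Kyoto rats aged 9 weeks. From each animal came 1 library of mitochondria, purified from fresh tissue by immunoprecipitation and then exposed to RNase A and proteinase K, and 1 library of snap-frozen whole muscle, which had neither enzyme. Libraries were ribosome-depleted total RNA, made from 10 ng of RNA for mitochondria and 50 ng for whole muscle. The study asked which RNAs, nuclear ones included, are found in muscle mitochondria.

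SLC25 proteins exchange metabolites between the cytosol and the mitochondrial matrix across a membrane that is otherwise closed to them. They are encoded in the nucleus, translated in the cytosol and inserted into the inner membrane. Skeletal muscle depends above all on the carriers that export ATP and that bring in phosphate, reducing equivalents and acylcarnitines, while other members serve mainly liver, kidney, brain, testis or red cell precursors.

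The mitochondria libraries held 720111 to 1785865 gene counts and the whole muscle libraries 24309444 to 32055355. Genes of the mitochondrial genome took 12.9% to 51.5% of the counts in mitochondria and 26.4% to 35.9% in muscle, so this defining feature of mitochondria did not set the groups apart. Levels are therefore given as nuclear CPM, the usual CPM computed on the counts of nuclear genes alone, and 1 count was worth 0.947 to 1.74 nuclear CPM in mitochondria and 0.0452 to 0.0642 in muscle. The files give no transcript lengths, so a nuclear CPM is a share of reads, and levels of different genes are set side by side only as such. The 6 skeletal muscle markers (Acta1, Ckm, Myh4, Myh7, Tnnt1 and Tnnt3) summed to 620.3 to 1030 nuclear CPM in mitochondria and 113104 to 149158 in muscle.

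The whole family took 0.159% to 0.170% of nuclear counts in mitochondria (median 0.160%) and 0.450% to 0.541% in muscle (median 0.506%), and the groups did not overlap. Slc25a4 alone made up 1.14% to 2.24% of the family's counts in mitochondria and 67.3% to 72.2% in muscle. Without Slc25a4, the other members summed to 1557 to 1660 nuclear CPM in mitochondria and 1413 to 1633 in muscle, and these ranges overlapped. Without the 4 members that had most reads in muscle (Slc25a4, Slc25a12, Slc25a11 and Slc25a20), the sum was 1422 to 1524 nuclear CPM in mitochondria, above the 584 to 719 in muscle. These 4 were picked by their muscle level and took 85.6% to 87.8% of the family's counts in muscle, against 9.49% to 10.5% in mitochondria. Their removal thus lowered the muscle sum by choice, and the order of the sums is a description. Across the members the levels lay much closer together in mitochondria than in muscle. All nuclear genes tested below also spanned a narrower ratio in mitochondria. Their 10th and 90th percentiles were 7.48 and 79.3 nuclear CPM in mitochondria and 0 and 51.4 in muscle. The mean over 6 libraries ranged from 7.46 (Slc25a6) to 87.6 nuclear CPM (Slc25a25) in mitochondria, leaving out Slc25a2, which had no count in any library, and from 0 to 3493 (Slc25a4) in muscle. Of the 45 members, 44 had a count in every mitochondria library, whereas 37 or 38 had one in a given muscle library, although the muscle libraries were the deeper ones. The same was not counted over all genes, but 5592 of the 24654 nuclear genes tested had mitochondria counts and none in muscle. These counts of members are therefore no result about carriers.

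**Figure D1:**
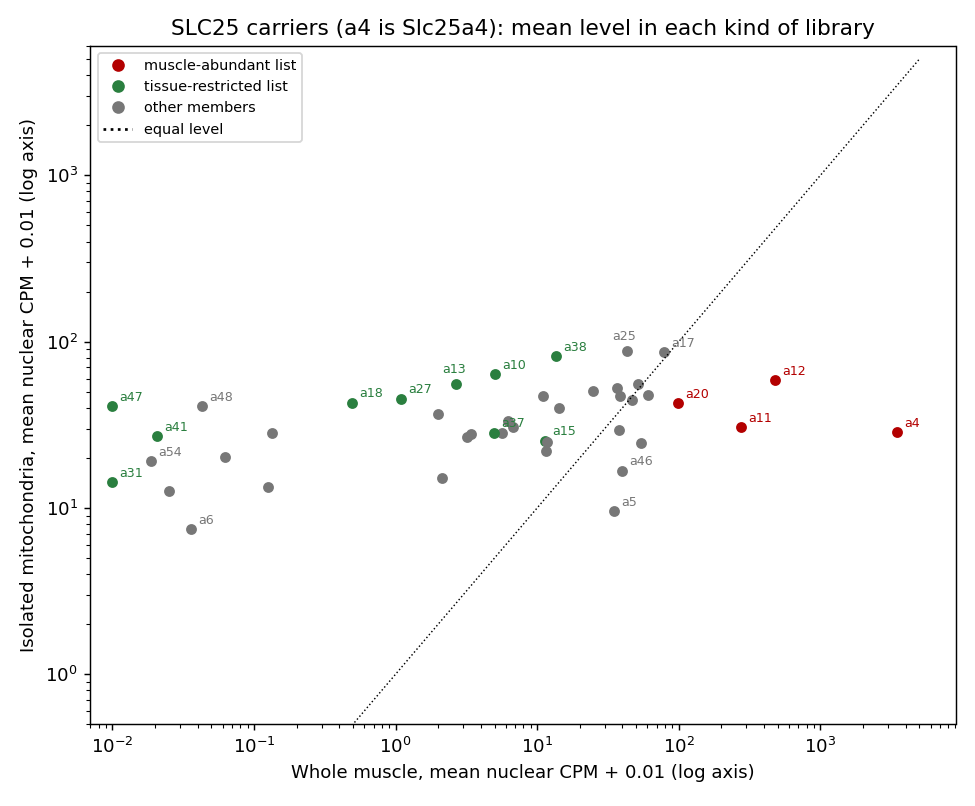
Mean nuclear CPM of 44 carriers over 6 libraries of isolated mitochondria (vertical) and 6 of whole muscle (horizontal), both on log axes with 0.01 added, points coloured by list. The points form a flat band between 7.46 and 87.6 nuclear CPM in mitochondria while they spread from 0 to 3493 in muscle, and 10 carriers lie below the line of equal level, Slc25a4, Slc25a11 and Slc25a12 farthest from it.

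Differences were tested with edgeR's quasi-likelihood test across 24679 genes with TMM scaling, and a gene passed at a Benjamini-Hochberg adjusted p under 0.05. TMM scales the libraries by a weighted mean of log ratios after trimming extremes. A TMM log2 fold change of 0 was not the middle of the genes tested, whose median was 2.51. Of the 44 members with enough counts, 19 were higher and 20 lower in mitochondria, and 5 did not pass. Among all genes tested, 63.0% were higher and 30.3% lower. The family's median log2 fold change, mitochondria over muscle, was 0.11, beside 2.51 over all genes tested. The sign of many members depends on the scaling. With nuclear counts as the scaling, the fit that corresponds to nuclear CPM and was added after the data were seen, the median over all genes was higher by 2.16, and 31 members were higher and 9 lower, against 85.6% higher and 9.29% lower among all genes. Fold changes are given under TMM first and with nuclear counts after. The family's medians were 0.11 under TMM and 2.26 with nuclear counts. Setting the 2 members without a muscle count at their bound could not move them, because both bounds lie far above these medians.

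The filter for low counts bears on these counts. Of the 44, 12 passed it through the mitochondria libraries alone and so could hardly come out as anything but higher: all 12 were, as were 98.9% of all genes that passed in this way. Of the 32 that passed through the muscle libraries, 7 were higher and 20 lower, or 21.9% and 62.5%, close to the 23.1% and 63.8% among all such genes, so these shares say nothing particular about carriers. In nuclear CPM, 28 members were higher in mitochondria without any overlap between the groups and 7 were lower without overlap, against 81.7% and 7.34% of all genes tested.

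The carriers known to be abundant in muscle were lower in mitochondria, as were most genes abundant in muscle. All 1158 nuclear genes at 100 nuclear CPM or more in muscle were lower under TMM, and 1046 of them with nuclear counts. From 10 to 100, where Slc25a20 lay by its mean, 5672 of 6683 were lower under TMM and 1210 with nuclear counts. The direction alone thus says nothing particular about carriers. Slc25a4, the ADP/ATP carrier of heart and muscle, which exports the ATP made in the matrix, had 18.1 to 38.1 nuclear CPM (median 29.3) in mitochondria, against 3083 to 3904 (median 3451) in whole muscle. No library of mitochondria came near any library of muscle, and the log2 fold change was -9.09 ± 0.21 (SE, edgeR adjusted p = 1.49e-25) and -6.94 with nuclear counts. The comparison sets RNA of enzyme-treated organelles against RNA of whole tissue, so a value is a share of each kind of library and not an amount per cell or per mitochondrion. Slc25a12, the aspartate/glutamate carrier aralar of the malate-aspartate shuttle, had 50.5 to 65.4 nuclear CPM (median 59.99) in mitochondria, against 436 to 514 (median 484) in whole muscle. Its log2 fold change was -5.18 ± 0.13 (SE, edgeR adjusted p = 2.97e-25) and -3.02 with nuclear counts. The oxoglutarate/malate carrier Slc25a11, its partner in that shuttle, had 23.5 to 38.1 nuclear CPM (median 30.96) in mitochondria, against 261 to 295 (median 271) in whole muscle, with log2 fold changes of -5.33 and -3.18. For Slc25a20, which brings acylcarnitines to fatty acid oxidation, the values were 39.2 to 46.6 nuclear CPM (median 41.6) in mitochondria, against 81.6 to 119 (median 102) in whole muscle, with log2 fold changes of -3.37 and -1.22. Each of these 4 separated the groups completely, as did 7.34% of all genes tested in that direction. All passed under TMM, nuclear counts, total counts and DESeq2, but Slc25a20 did not pass relative to mitochondrial genome counts (log2 fold change -0.87, edgeR adjusted p = 0.0992). Slc25a3, also on this list, is not analysed here.

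**Figure D2:**
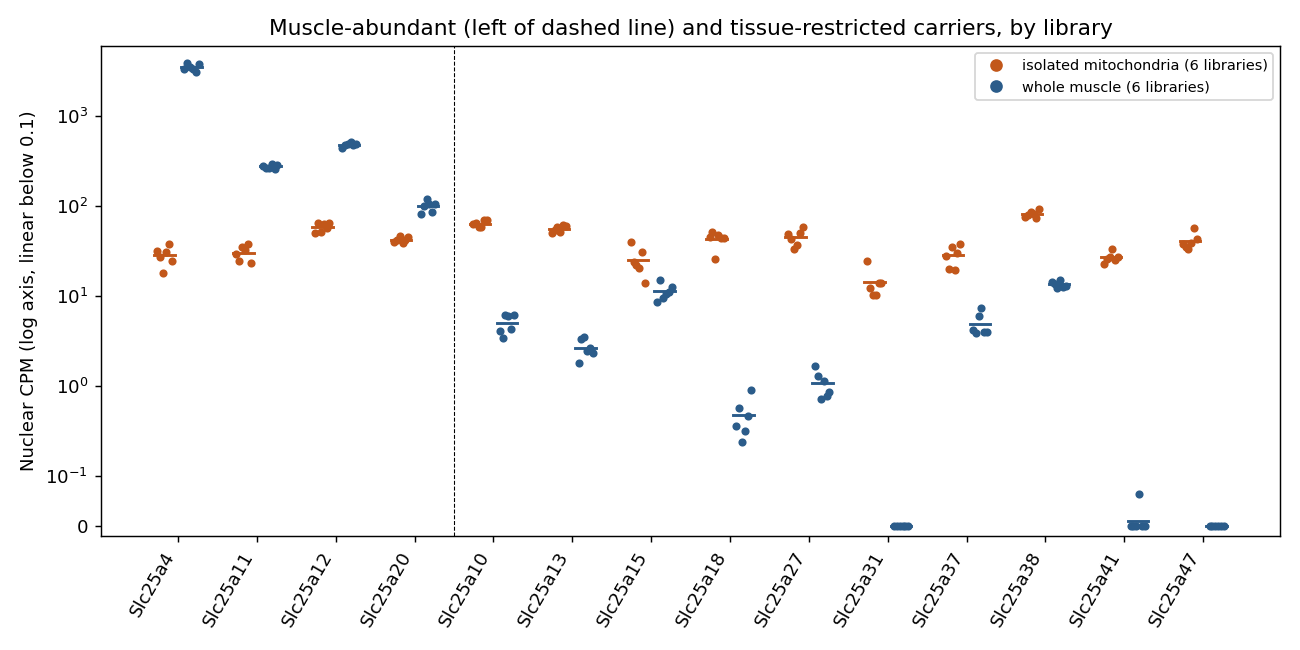
Nuclear CPM in each of 6 libraries of isolated mitochondria (orange, left of each pair) and 6 of whole muscle (blue, right), on a log axis that is linear below 0.1, with a bar at the mean of each group. The 4 muscle-abundant carriers lie lower in mitochondria than in muscle in every library, while all 10 tissue-restricted carriers have medians of 13.1 to 80.8 in mitochondria, above their muscle medians.

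Of the tissue-restricted carriers, all 10 were higher in mitochondria with nuclear counts, where 85.6% of all genes were, and 8 were higher under TMM, where 63.0% of all genes were. Slc25a15 was lower under TMM and Slc25a37 did not pass. Slc25a18, Slc25a27, Slc25a31, Slc25a41 and Slc25a47 passed the filter through the mitochondria libraries alone, so their direction was fixed by it, and the count says nothing particular about the list. All 10 carriers of the list together summed to 391 to 462 nuclear CPM in mitochondria and 35.1 to 43.1 in muscle. Of the liver and kidney carriers, Slc25a47 had 33.6 to 56.5 nuclear CPM (median 38.8) in mitochondria, while all 6 muscle libraries were at 0. It was at least 1590-fold higher by nuclear CPM against a floor of 3 counts over the muscle group. Slc25a13, the aspartate/glutamate carrier citrin of liver, had 50.5 to 61.1 nuclear CPM (median 56.1) in mitochondria, against 1.81 to 3.48 (median 2.54) in whole muscle (log2 fold change 2.23 ± 0.17, SE, edgeR adjusted p = 2.10e-13; 4.38 with nuclear counts). The dicarboxylate carrier Slc25a10 of liver, kidney and fat had 58.2 to 69.3 nuclear CPM (median 63.6) in mitochondria, against 3.46 to 6.18 (median 5.16) in whole muscle, with log2 fold changes of 1.52 and 3.67. Slc25a15, the ornithine carrier of the urea cycle, showed 14.1 to 40.1 nuclear CPM (median 22.8) in mitochondria, against 8.64 to 15.2 (median 10.8) in whole muscle: the ranges overlapped, and the log2 fold change was -1.03 under TMM but 1.13 with nuclear counts, each past the threshold.

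Both brain carriers had some reads in muscle. The glutamate carrier Slc25a18, found in glia, had 25.9 to 51.2 nuclear CPM (median 44.97) in mitochondria, against 0.242 to 0.916 (median 0.413) in whole muscle (log2 fold changes 4.32 and 6.47). Slc25a27, an uncoupling protein relative of neurons, had 33.6 to 58.7 nuclear CPM (median 45.7) in mitochondria, against 0.725 to 1.67 (median 1.01) in whole muscle (log2 fold changes 3.20 and 5.36). Both stood clear of muscle in every mitochondria library, as did 81.7% of all genes tested. As both passed the filter through the mitochondria libraries alone, this separation says nothing particular about them. Of the testis carriers, Slc25a31, the ADP/ATP carrier of male germ cells, had 10.3 to 24.4 nuclear CPM (median 13.1) in mitochondria and no muscle count, at least 527-fold higher against the floor. Slc25a41, a short ATP-Mg/phosphate carrier, had 135 counts in all mitochondria libraries together and 1 in muscle, a ratio of 3141 (95% exact interval 554 to 124973) by nuclear CPM that covers counting error only. Among the red cell carriers, Slc25a38, which supplies glycine for heme synthesis, had 73.8 to 92.8 nuclear CPM (median 80.8) in mitochondria, against 12.4 to 15.1 (median 13.3) in whole muscle and passed at 0.44 ± 0.11 (SE, edgeR adjusted p = 0.000703) and 2.59. Slc25a37, mitoferrin-1, which imports iron, had 19.6 to 37.6 nuclear CPM (median 28.9) in mitochondria, against 3.94 to 7.38 (median 4.11) in whole muscle. Its log2 fold change was 0.37 under TMM (edgeR adjusted p = 0.0796) and 2.51 with nuclear counts, where it passed.

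Markers of other tissues and cell types were read in the same way. All 3 liver markers (Alb, Apoa1, Ttr), all 3 brain markers (Gfap, Snap25, Syt1) and both testis markers analysed (Tnp1, Odf1) were higher in mitochondria under both scalings, but each of them passed the filter through the mitochondria libraries alone, which fixed that direction. The liver markers summed to 56.5 to 73.2 nuclear CPM in mitochondria and 0.0904 to 0.515 in muscle, and the brain markers to 106 to 137 nuclear CPM in mitochondria and 0 to 0.207 in muscle, with Snap25 at 0 in muscle. For the testis markers the sum was 37.5 to 61.1 nuclear CPM in mitochondria, while both were at 0 in muscle. The red cell marker Alas2 had 12.9 to 25.8 nuclear CPM in mitochondria and 4.23 to 9.16 in muscle, and was lower under TMM (-0.54) and higher with nuclear counts (1.59). The 3 adipocyte markers (Adipoq, Plin1, Lep), which passed the filter by the same route and were higher under both scalings, summed to 80.8 to 103 nuclear CPM in mitochondria and 0.0960 to 4.699 in muscle. Macrophage markers (Cd68, Csf1r, Adgre1) summed to 157 to 229.6 nuclear CPM in mitochondria and 19.7 to 35.3 in muscle, and all 3 were higher with nuclear counts and 2 under TMM. Endothelial markers (Pecam1, Cdh5, Kdr) summed to 241 to 280.3 nuclear CPM in mitochondria and 303 to 628 in muscle and all 3 were lower under TMM, and Schwann cell markers (Sox10, Mbp) to 89.1 to 130.4 nuclear CPM in mitochondria and 6.01 to 30.9 in muscle, with Sox10 (also through the filter by mitochondria alone) higher under both scalings and Mbp with nuclear counts alone. The part of other cell types in the carriers' levels was not tested.

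Upstream sequence is shown for the aspartate/glutamate carriers of muscle and liver and for the carriers at either end of the muscle range, since they carry the contrast between muscle-abundant and restricted members. The 250 bases before the annotated start of each gene, from RefSeq on assembly GRCr8, are given 5′ to 3′ on the gene's strand. Capitals mark matches on either strand to the CCAAT box, the GC box (GGGCGG) or the E-box (CANNTG, bound by myogenic factors among others), and the TATA box (letters TATAAA) was searched too. Matches that overlap were each counted. The windows are chr16:52805271-52805520 (plus strand) for Slc25a4, chr3:76599537-76599786 (minus strand) for Slc25a12, chr4:35328361-35328610 (minus strand) for Slc25a13 and chr6:133531491-133531740 (plus strand) for Slc25a47.
Slc25a4: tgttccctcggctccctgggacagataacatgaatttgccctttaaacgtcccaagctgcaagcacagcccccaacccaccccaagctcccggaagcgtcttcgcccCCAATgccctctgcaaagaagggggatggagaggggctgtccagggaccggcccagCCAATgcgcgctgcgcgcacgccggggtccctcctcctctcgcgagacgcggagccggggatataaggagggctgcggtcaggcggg
Slc25a12: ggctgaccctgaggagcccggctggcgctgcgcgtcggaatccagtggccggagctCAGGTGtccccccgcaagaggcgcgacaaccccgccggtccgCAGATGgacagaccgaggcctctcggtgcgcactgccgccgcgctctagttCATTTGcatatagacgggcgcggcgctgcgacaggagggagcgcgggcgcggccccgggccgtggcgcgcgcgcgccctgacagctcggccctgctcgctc
Slc25a13: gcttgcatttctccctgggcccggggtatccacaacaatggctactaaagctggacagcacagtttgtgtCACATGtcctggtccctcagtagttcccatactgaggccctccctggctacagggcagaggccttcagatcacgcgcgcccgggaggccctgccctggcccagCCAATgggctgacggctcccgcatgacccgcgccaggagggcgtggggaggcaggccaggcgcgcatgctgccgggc
Slc25a47: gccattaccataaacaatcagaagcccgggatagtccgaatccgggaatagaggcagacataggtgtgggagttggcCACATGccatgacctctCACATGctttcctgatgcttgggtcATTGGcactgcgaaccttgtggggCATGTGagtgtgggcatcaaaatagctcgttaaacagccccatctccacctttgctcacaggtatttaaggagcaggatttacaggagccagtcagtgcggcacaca
The Slc25a4 window held 2 CCAAT boxes and no other of these motifs, and that of Slc25a12 held 3 E-boxes. Slc25a13 had 1 CCAAT box and 1 E-box, and Slc25a47 had 1 CCAAT box and 3 E-boxes. The windows differed in base composition: 74.0% of bases were G or C, with 36 CpG, for Slc25a12, and 51.6%, with 6 CpG, for Slc25a47. Between them lay Slc25a4, with 65.6% and 19 CpG, and Slc25a13, with 66.0% and 13 CpG, so the muscle-abundant and restricted carriers shown did not part by this measure. The median was 56.4% and 13 CpG over the family's windows and 51.2% and 5 CpG over 33469 upstream windows of rat genes. Windows were found for 37 of the 45 members, 39 in all, and 51.3% of these held a CCAAT box, 51.3% a GC box, 59.0% an E-box and 5.13% a TATA box, against 34.0%, 30.5%, 65.5% and 12.9% of all windows. A match describes these letters and says nothing about binding.

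Carriers of nucleotides and phosphate made up 11 rows, of which 3 were higher and 7 lower under TMM, and 7 were higher and 4 lower with nuclear counts. Among all genes, 63.0% were higher and 30.3% lower under TMM, and 85.6% and 9.29% with nuclear counts. These shares also stand beside the counts of the classes below, and no class was tested as a set. The 3 higher under TMM (Slc25a6, Slc25a31 and Slc25a41) passed the filter through the mitochondria libraries alone, which fixed their direction. Besides Slc25a4 and Slc25a31, they include Slc25a5, the ADP/ATP carrier of dividing cells, which had 4.61 to 15 nuclear CPM (median 8.15) in mitochondria, against 24.3 to 44.2 (median 35.3) in whole muscle (log2 fold change -4.01 ± 0.19, SE, edgeR adjusted p = 1.27e-18; -1.87 with nuclear counts). RefSeq lists several pseudogenes of Slc25a5 in the rat, so its reads may have been split or dropped in counting. The gene named Slc25a6, after the human carrier ANT3, had 37 counts in mitochondria and 3 in muscle, a ratio of 287 (95% exact interval 90.9 to 1455). Of the calcium-regulated ATP-Mg/phosphate carriers, 3 were seen in muscle. Slc25a23 had 38.8 to 54.02 nuclear CPM (median 49.5) in mitochondria, against 53.1 to 69.98 (median 59.1) in whole muscle, with log2 fold changes of -2.49 and -0.33, both past the threshold. Slc25a25, which had the highest mean of the family in mitochondria, had 62.3 to 104 nuclear CPM (median 90.4) in mitochondria, against 17.2 to 63.5 (median 45.2) in whole muscle, with log2 fold changes of -1.10 under TMM and 1.03 with nuclear counts. The ranges of both carriers overlapped between the groups. Slc25a24 had 21.1 to 42.7 nuclear CPM (median 34.5) in mitochondria, against 4.54 to 7.59 (median 6.53) in whole muscle and passed only with nuclear counts (0.24 under TMM, edgeR adjusted p = 0.197, and 2.40). The pyrimidine nucleotide carriers differed: Slc25a36 had 12.9 to 36.4 nuclear CPM (median 21.9) in mitochondria, against 45.7 to 67.5 (median 54) in whole muscle and was lower under both scalings (-3.27 and -1.12), while Slc25a33 had 11.4 to 29.6 nuclear CPM (median 22.7) in mitochondria, against 8.21 to 13.5 (median 11.6) in whole muscle and changed sign between them (-1.27 and 0.89). The groups overlapped for Slc25a33 and not for Slc25a36.

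Of the 4 di- and tricarboxylate carriers, Slc25a11 was lower and the other 3 were higher under both scalings. Among the 3, Slc25a21 passed the filter through the mitochondria libraries alone, which fixed its direction. Slc25a1, which exports citrate for fatty acid synthesis, had 21.9 to 35.1 nuclear CPM (median 23.9) in mitochondria, against 2.304 to 4.47 (median 2.95) in whole muscle (log2 fold change 0.93 ± 0.19, SE, edgeR adjusted p = 5.46e-05; 3.07 with nuclear counts). Slc25a21, the oxodicarboxylate carrier of lysine breakdown, had 24.4 to 33.5 nuclear CPM (median 26.6) in mitochondria, against 0.0483 to 0.317 (median 0.0801) in whole muscle, with log2 fold changes of 5.50 and 7.64 on 15 muscle counts in all. Neither overlapped between the groups, nor did 81.7% of all genes tested in that direction.

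Amino acid carriers gave 8 tested rows, 3 higher and 3 lower under TMM, and 7 higher and 1 lower (Slc25a12) with nuclear counts. The higher ones include Slc25a18, whose direction was fixed by the filter. The broadly expressed glutamate carrier Slc25a22 had 40.1 to 54.02 nuclear CPM (median 47.2) in mitochondria, against 8.64 to 13.8 (median 10.7) in whole muscle: its TMM log2 fold change of -0.06 did not pass (edgeR adjusted p = 0.663), while that with nuclear counts was 2.09. Slc25a44, which imports branched-chain amino acids, had 38.8 to 65.8 nuclear CPM (median 46.97) in mitochondria, against 22.9 to 27.2 (median 24.7) in whole muscle, with -1.12 and 1.04, opposite in sign. Slc25a29, a carrier of basic amino acids, had 24.7 to 31.3 nuclear CPM (median 28.4) in mitochondria, against 3.36 to 7.77 (median 6.14) in whole muscle and did not pass under TMM (0.19, edgeR adjusted p = 0.322) but was higher with nuclear counts (2.34). Slc25a2, an ornithine carrier, had no count in any of the 12 libraries, which allows up to 3 counts over each group.

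Of 10 carriers of cofactors, acylcarnitine, metals and glutathione, 2 were higher and 7 lower under TMM, and 5 were higher and 2 lower with nuclear counts. Slc25a17, the carrier of peroxisomes rather than mitochondria, had 77.3 to 103 nuclear CPM (median 84.1) in mitochondria, against 68.1 to 88.7 (median 77.6) in whole muscle: the ranges overlapped, and it was lower under TMM (-2.02) but did not pass with nuclear counts (0.14, edgeR adjusted p = 0.213). The coenzyme A carrier Slc25a42 had 43.6 to 69.2 nuclear CPM (median 56.1) in mitochondria, against 45.3 to 61.7 (median 51.3) in whole muscle. The glutathione carrier Slc25a39 had 26.5 to 62.1 nuclear CPM (median 48.3) in mitochondria, against 35.04 to 46.3 (median 36.99) in whole muscle. Both overlapped between the groups and were lower under TMM (-2.05 for Slc25a42 and -1.87 for Slc25a39), while neither passed with nuclear counts (0.10 and 0.29). Slc25a40, the close relative of Slc25a39, had 19.97 to 33.5 nuclear CPM (median 29.8) in mitochondria, against 2.503 to 4.24 (median 3.48) in whole muscle and was higher under both scalings (0.87 and 3.03). Slc25a28, mitoferrin-2, the iron carrier of tissues other than red cell precursors, had 18.9 to 39.2 nuclear CPM (median 29.5) in mitochondria, against 30.2 to 43.3 (median 38.5) in whole muscle and was lower under both (-2.55 and -0.39), although the ranges overlapped. Slc25a26, which imports S-adenosylmethionine for methylation in the matrix, had 33.1 to 51.9 nuclear CPM (median 37.6) in mitochondria, against 11.04 to 17.2 (median 13.8) in whole muscle, and Slc25a32, a carrier of folate and FAD, had 17.6 to 36.95 nuclear CPM (median 24.9) in mitochondria, against 10.7 to 12.6 (median 11.8) in whole muscle. Both changed sign, at -0.67 and -1.04 under TMM and 1.49 and 1.11 with nuclear counts. Slc25a52, known in human as an NAD carrier, had 62 counts in mitochondria and 2 in muscle, both in replicate 1, a ratio of 721 (95% exact interval 191 to 6088). It passed the filter through the mitochondria libraries alone, which fixed its direction.

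Among the relatives of the uncoupling proteins, Slc25a30 had 39.8 to 49.6 nuclear CPM (median 43.99) in mitochondria, against 30.1 to 85.2 (median 39.4) in whole muscle, lower under TMM (-2.19) and without a call with nuclear counts (-0.06, edgeR adjusted p = 0.775). Slc25a14 had 8.08 to 21.8 nuclear CPM (median 14.8) in mitochondria, against 1.55 to 2.76 (median 2.12) in whole muscle and was higher under both (0.69, edgeR adjusted p = 0.00966, and 2.84). Without mitochondria replicate 2 the TMM value of Slc25a14 was 0.50 and did not pass (edgeR adjusted p = 0.0772).

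Of the 8 members with less settled substrates, 6 were higher and 1 lower under TMM. Among the 6, Slc25a43, Slc25a47, Slc25a48, Slc25a53 and Slc25a54 passed the filter through the mitochondria libraries alone, which fixed their direction. The count therefore says nothing particular about these members. The lower one, Slc25a46, sits in the outer membrane and acts in mitochondrial dynamics. It had 10.4 to 23.3 nuclear CPM (median 15.6) in mitochondria, against 35.2 to 44.7 (median 40.1) in whole muscle, with log2 fold changes of -3.40 and -1.25. Slc25a35 had 21.9 to 38.8 nuclear CPM (median 31.7) in mitochondria, against 6.18 to 7.83 (median 6.57) in whole muscle and a TMM log2 fold change of 0.02, which did not pass (edgeR adjusted p = 0.906), against 2.17 with nuclear counts. Slc25a45 had 34.8 to 39.9 nuclear CPM (median 36.1) in mitochondria, against 1.58 to 2.803 (median 1.87) in whole muscle (2.05 and 4.21). Besides Slc25a47, the remaining 4 were nearly without reads in muscle. Slc25a48 had 206 counts in mitochondria and 4 in muscle, and Slc25a53 had 102 in mitochondria and 6 in muscle. Slc25a43 had 66 in mitochondria and 13 in muscle, and Slc25a54 had 98 in mitochondria and 1 in muscle. Their TMM log2 fold changes were 7.67, 6.19, 4.599 and 7.81, values that depend on the prior count. For Slc25a54 the ratio by nuclear CPM was 2280 (95% exact interval 399.8 to 90970).

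**Figure D3:**
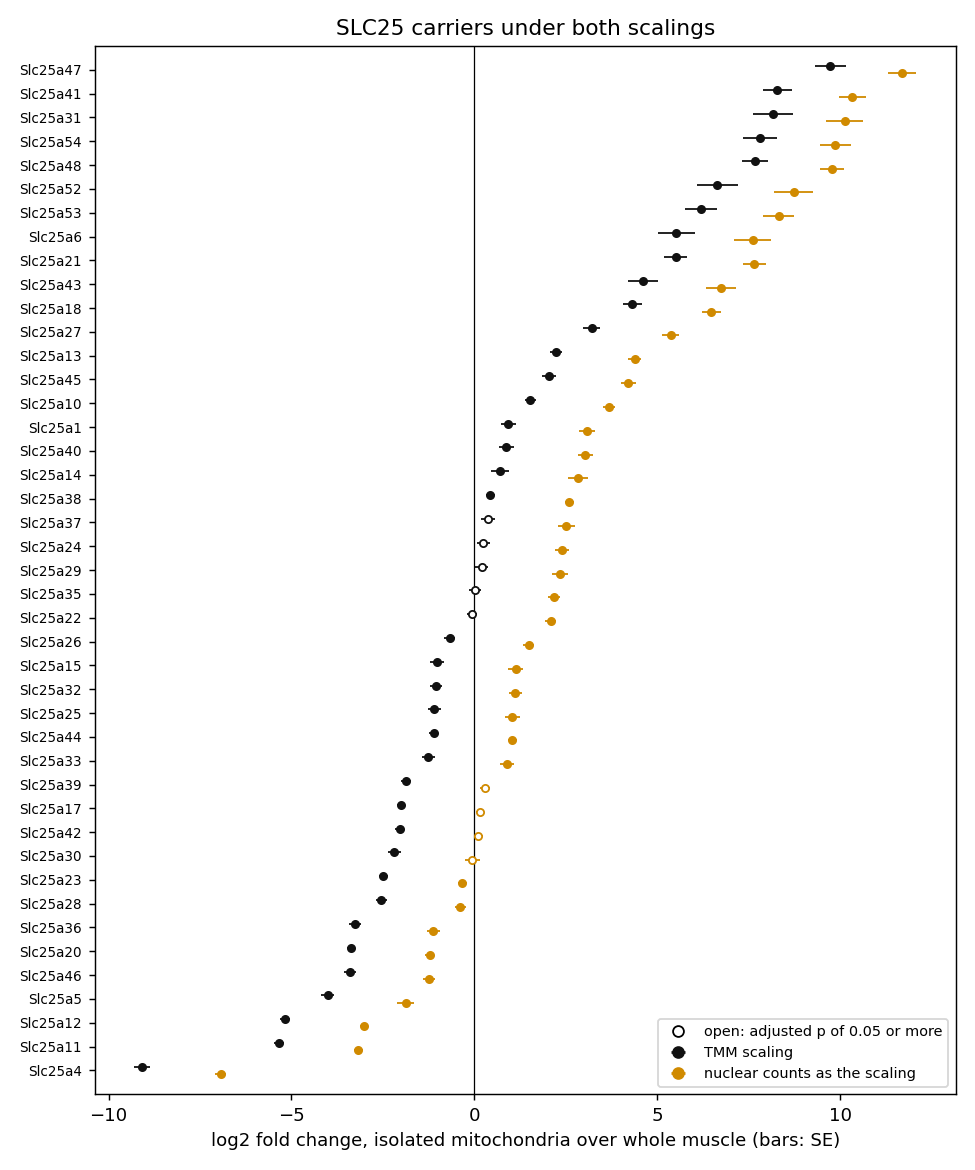
Log2 fold change of mitochondria over whole muscle with its standard error for 43 of the 44 tested carriers, in the order of the TMM values (black) and beside the values with nuclear counts as the scaling (orange), open symbols where the adjusted p missed 0.05. The orange points lie about 2.15 to the right of the black ones, so that 6 of the carriers drawn pass as lower in black and higher in orange.

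Sorted by both scalings, 9 members were lower under each: Slc25a4, Slc25a5, Slc25a11, Slc25a12, Slc25a20, Slc25a23, Slc25a28, Slc25a36 and Slc25a46. The 19 that were higher under TMM were also higher with nuclear counts. Another 7 were lower under TMM and higher with nuclear counts, which was the case for 15.8% of all genes. They included Slc25a15, Slc25a25, Slc25a26, Slc25a32, Slc25a33 and Slc25a44. Slc25a17, Slc25a30, Slc25a39 and Slc25a42 were lower under TMM only, and the 5 that did not pass under TMM (Slc25a22, Slc25a24, Slc25a29, Slc25a35 and Slc25a37) were higher with nuclear counts. With total counts as the library size 31 members were higher and 9 lower (84.3% and 9.03% of all genes), with mitochondrial genome counts 30 and 5 (80.7% and 4.40%), and in DESeq2 24 and 19 (66.4% and 26.4%). Across these and both scalings above, 5 members were lower throughout (Slc25a4, Slc25a5, Slc25a11, Slc25a12 and Slc25a36) and the same 19 were higher throughout, as were 4.32% and 61.6% of all genes. Of the 19, 12 passed the filter through the mitochondria libraries alone, which fixed their direction. The family's median log2 fold change was lowest under TMM, so members higher there could hardly fail to be higher elsewhere.

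Ratios of counts between related carriers within a library depend neither on the scaling nor, when compared between groups and as long as the same transcripts are read, on transcript length. Each ratio puts first the gene with more reads in muscle, and the pairs were picked for kinship after their values were seen, so the direction is a description. Slc25a12 over Slc25a13, the aspartate/glutamate carriers of muscle and liver, gave 0.889 to 1.22 in mitochondria (median 1.04) and 140.1 to 241 in muscle (median 195). In every mitochondria library the muscle form and the liver form thus had nearly the same number of reads. Slc25a4 over Slc25a5 gave 1.27 to 8.25 in mitochondria (median 3.55) and 80.1 to 127 in muscle (median 104), on 4 to 13 Slc25a5 counts per mitochondria library. The glutamate carriers, Slc25a22 over Slc25a18, gave 0.796 to 1.55 in mitochondria (median 1.11) and 11.9 to 57 in muscle (median 26.9), and the mitoferrins, Slc25a28 over Slc25a37, gave 0.625 to 2 in mitochondria (median 0.976) and 5.87 to 9.701 in muscle (median 8.36). For the glutathione carriers, Slc25a39 over Slc25a40, the ratio was 0.885 to 2.67 in mitochondria (median 1.69) and 8.54 to 16.2 in muscle (median 10.5). The groups did not overlap for any of the 11 pairs, and the ratio was smaller in mitochondria for all 11. The same was not counted over other gene pairs, and levels of all nuclear genes tested also spanned a narrower ratio in mitochondria, with 10th and 90th percentiles of 7.48 and 79.3 nuclear CPM in mitochondria and 0 and 51.4 in muscle, so the count is no result about carriers. The smallest separation was that of the ATP-Mg/phosphate carriers, Slc25a23 over Slc25a25, with 0.447 to 0.796 in mitochondria (median 0.543) and 0.922 to 3.67 in muscle (median 1.32).

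**Figure D4:**
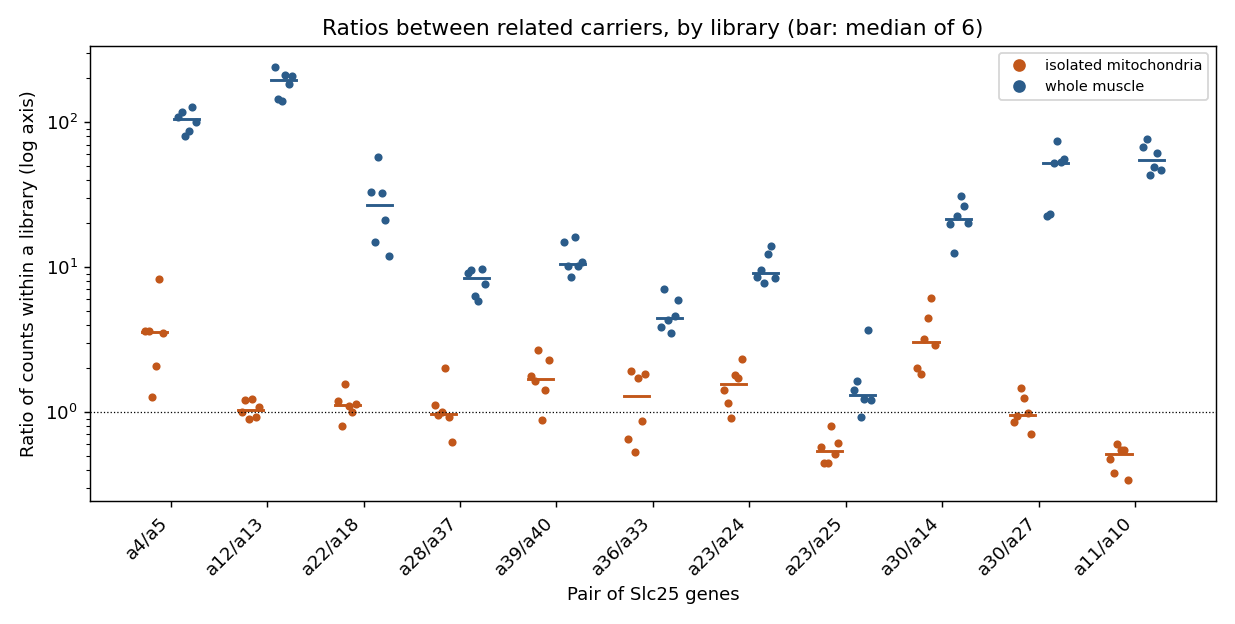
Ratio of counts between 11 pairs of related carriers in each of 6 libraries of isolated mitochondria (orange, left) and 6 of whole muscle (blue, right), on a log axis with a bar at the median. The medians lie between 0.511 and 3.55 in mitochondria and between 1.32 and 195 in muscle, and no pair overlaps between the groups.

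Grouped by their muscle level, the carriers had a lower median TMM log2 fold change in each higher muscle class, as had all nuclear genes. The muscle level enters the fold change, so these values are a description. The 3 carriers at 100 nuclear CPM or more in muscle had a median TMM log2 fold change of -5.33, against -4.00 for the 1158 genes at that level. For the 19 carriers from 10 to 100 it was -1.87, and for the 6683 genes at that level -1.38. The 11 carriers from 1 to 10 had a median of 0.87, beside 0.92 over 4727 tested genes. Below 1 nuclear CPM, 9 carriers had 6.19 and 6494 tested genes 5.85. The median level in mitochondria, by rising muscle class, was 20.1, 30.8, 44.6 and 30.5 nuclear CPM for the carriers and 18.7, 35.1, 47.03 and 55.98 for all nuclear genes. At the top class the median thus lay below that of the class beneath it for the carriers and above it for all genes, a difference that was not tested and rests on 3 carriers. Spearman's correlation between the mean levels in both groups was 0.44 across 44 carriers and 0.57 across 24654 nuclear genes, a description across genes that share libraries and whose lengths enter both axes.

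Members also differed in how much they varied between the libraries of a group. Each animal gave 1 library per group, so differences between animals and between preparations cannot be told apart. In muscle, the 25 members with at least 100 counts on average had coefficients of variation from 5.01% (Slc25a11) to 42.4% (Slc25a30), with a median of 11.4%, against 13.4% over 9656 nuclear genes with as many counts. Slc25a30 was highest in muscle replicate 4, at 85.2 nuclear CPM, and 30.1 to 47.5 in the other 5 libraries. Slc25a25, with 35.7%, was lowest in muscle replicate 5, at 17.2, and 37.6 to 63.5 in the others. In mitochondria the counts were small. The 42 members with at least 10 counts on average had a median coefficient of variation of 20.1%, where counting alone gives 19.5%, and 37 of them stayed within 1.5 times their counting error. These were 88.1% of the members, beside 85.9% of 19760 nuclear genes with as many counts, so the share says nothing particular about carriers. Differences between animals in mitochondria were therefore not detectable for most carriers at this depth.

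Family proteins under another gene name lie outside the rule. Ucp3, the uncoupling protein of skeletal muscle, had 33.6 to 59.2 nuclear CPM (median 37.99) in mitochondria, against 42.7 to 163 (median 73.1) in whole muscle (log2 fold changes -3.22 and -1.04). Ucp2, of immune cells and other tissues, had 35.7 ± 7.25 nuclear CPM in mitochondria, against 12.1 ± 2.31 in muscle (SD, n = 6 each; -0.60 and 1.55). Ucp1, of brown fat, had 9.398 to 27.5 nuclear CPM (median 16.6) in mitochondria and no muscle count. The outer membrane proteins Mtch1 and Mtch2 were lower under both scalings, at -2.99 and -3.83 under TMM and -0.84 and -1.68 with nuclear counts. Mcart1, the older symbol of the NAD carrier gene Slc25a51 by the RefSeq synonyms and added after its values were seen, had 88.1 to 99.3 nuclear CPM (median 92.8) in mitochondria, against 49.7 to 64.3 (median 54.1) in whole muscle (-1.42 and 0.74).

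Of 23 enzymes that work with the carriers, 20 were lower and 2 higher under TMM, and 14 were lower and 8 higher with nuclear counts. Among all genes tested, 30.3% were lower and 63.0% higher under TMM, and 9.29% and 85.6% with nuclear counts. All 1158 genes at 100 nuclear CPM or more in muscle, where Got2, Mdh1 and Ckmt2 lay, were lower under TMM. The counts are thus no result about these enzymes. The enzymes of the malate-aspartate shuttle, which run with Slc25a11 and Slc25a12, were lower under both scalings. Got2 had 42.7 ± 11.3 nuclear CPM in mitochondria, against 714 ± 70.8 in muscle, and Mdh1 had 35.4 ± 10.6 nuclear CPM in mitochondria, against 688 ± 121 in muscle (SD, n = 6 each). Their log2 fold changes were -6.20 and -4.04 for Got2, and -6.44 and -4.30 for Mdh1. Ckmt2, the mitochondrial creatine kinase that takes up the ATP exported by Slc25a4, had 49.01 ± 8.48 nuclear CPM in mitochondria, against 2101 ± 399.9 in muscle (-7.57 and -5.43). Otc, the urea cycle enzyme supplied by Slc25a15, had 17.8 ± 2.77 nuclear CPM in mitochondria, against 0.0295 ± 0.0522 in muscle, and Mthfd2, a folate enzyme, had 48.2 ± 9.82 nuclear CPM in mitochondria, against 0.999 ± 0.662 in muscle. These last ones, which passed the filter through the mitochondria libraries alone, were the 2 that were higher under TMM, at 6.76 and 3.44.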

How the data were processed

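The authors deposited 1 table of raw read counts per gene, with Ensembl identifiers, gene names and a column for each of the 12 libraries. FastQC 0.74, cutadapt 4.6, STAR 2.7.11a, HTSeq and the build mRatBN7.2 are named in the submitters' processing notes. Strand setting, multimapper handling and gene annotation are not given there, so reads of near-identical copies and of overlapping genes cannot be told apart.

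Groups came from the sample titles. All genes were tested together with edgeR 4.0.16 in R 4.3.3 (glmQLFit, glmQLFTest, TMM scaling, filterByExpr at min.count 10, no covariate, Benjamini-Hochberg adjustment over all genes, threshold 0.05), and standard errors were derived from each fold change and its F statistic (its size over sqrt F). Nuclear CPM leave out 37 genes of the mitochondrial genome. Alternatives were RLE factors, total counts, mitochondrial genome counts or (added later) nuclear counts as the scaling, nuclear genes alone, DESeq2 1.42.0, no filter, an animal block and each library left out. On simulated counts at these depths the test recovered 68% of 2-fold and 98% of 4-fold changes among 26644 genes, with 5.14% false calls. The simulation gave both groups the same profile and a fixed spread, with few genes changed, as many up as down. In the data 63.0% of genes were called higher and 30.3% lower, so these rates do not carry over to the comparison made here. Intervals and floors cover counting error only.

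The labels give an animal number for every library, and equal replicate numbers mean the same rat. Deviations from the group means correlated at -0.00747 to 0.0201 within an animal. P-values rest on 6 animals.

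The members, the gene lists, the tests and the rule for named genes were chosen with earlier results of these data known. The rule gives full values for the muscle-abundant and tissue-restricted lists, the 5 members most raised and the 5 most lowered, and those with opposite calls under 2 scalings, and brief values for the rest. A planned comparison of levels per coding length and a count of protein signature motifs were not made, as no protein or transcript lengths were used here. RefSeq symbols (GRCr8, not the build of the counts) matched all 45 members. Slc25a3, Slc25a16, Hba-a1, Hbb and Prm1 are not analysed here. For 1 member and 2 markers no values are reported here.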

Additional observations from a re-analysis of the deposited data

Results flagged for a closer look

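Single libraries stood apart from the other 5 of their group for 7 of the 86 combinations of member and group examined, by a gap wider than 0.625 of the whole range. Chance alone gives about 1 in 20. Slc25a30, a relative of the uncoupling proteins, had 85.2 nuclear CPM in muscle replicate 4, on 1328 counts, and 30.1 to 47.5 in the other muscle libraries. Mitochondria replicate 3 had 103 nuclear CPM of Slc25a17, the peroxisomal carrier, against 77.3 to 86.2 in the others, and 25.9 of Slc25a18, the glial glutamate carrier, against 43.8 to 51.2. Slc25a31, the germ cell ADP/ATP carrier, had 24.4 nuclear CPM in mitochondria replicate 1, on 14 counts in the mitochondria library with fewest nuclear counts, and 10.3 to 14.1 in the others.

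The last 3 rest on 1 or 2 reads. Slc25a41 had 0.0642 nuclear CPM in muscle replicate 4, from 1 count. Slc25a52 had 0.0904 in muscle replicate 1, from 2 counts, and Slc25a54 had 0.0516 in muscle replicate 5, from 1 count. Each was at 0 in the other 5 muscle libraries.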

How the results depend on the processing

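Scaling was the choice that mattered. Under TMM 19 members were higher and 20 lower, with a median log2 fold change of 0.11. With total counts 31 were higher and 9 lower (median 2.22), with nuclear counts 31 and 9 (2.26), with mitochondrial genome counts 30 and 5 (2.62), with RLE factors 24 and 19 (0.47) and in DESeq2 24 and 19 (0.47). Members that changed sign had log2 fold changes, with total counts, of Slc25a15 1.09, Slc25a17 0.11, Slc25a22 2.03, Slc25a25 1.02, Slc25a26 1.43, Slc25a32 1.05, Slc25a33 0.84, Slc25a39 0.27, Slc25a42 0.044 and Slc25a44 0.96. With nuclear counts they had Slc25a15 1.13, Slc25a17 0.14, Slc25a22 2.09, Slc25a25 1.03, Slc25a26 1.49, Slc25a32 1.11, Slc25a33 0.89, Slc25a39 0.29, Slc25a42 0.10 and Slc25a44 1.04. Relative to mitochondrial genome counts they had Slc25a15 1.51, Slc25a17 0.57, Slc25a22 2.36, Slc25a25 1.47, Slc25a26 1.75, Slc25a30 0.30, Slc25a32 1.29, Slc25a33 1.25, Slc25a39 0.78, Slc25a42 0.41 and Slc25a44 1.20. After the change of sign, Slc25a17, Slc25a39 and Slc25a42 did not pass with any of these scalings, nor did Slc25a30 relative to mitochondrial genome counts. Slc25a22, which did not pass under TMM, was also above 0 with RLE factors (0.31) and in DESeq2 (0.30). Slc25a35 was at -0.041 without the filter. By construction these scalings act on whole libraries and so move genes together, though not by equal amounts. From TMM to mitochondrial genome counts, Slc25a36 went from -3.27 to -1.15 and Slc25a25 from -1.10 to 1.47. Which of the scalings reflects RNA amounts was not tested.

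With the animal as a replicate block, 19 members were higher and 20 lower (median 0.12), and no member changed its call. Nuclear genes alone gave 19 and 20 (median 0.099) and no filter 19 and 20 (0.046). With single libraries left out, 16 to 19 were higher and 20 lower, with medians from -0.0089 to 0.12, below 0 only without muscle replicate 2. Without any 1 muscle library the filter dropped Slc25a6, Slc25a14 and Slc25a52, and the number of tested genes fell to between 20003 and 20007, against 24679. Over the 12 fits Slc25a22 ranged over -0.13 to 0.11 and Slc25a35 over -0.080 to 0.15, neither past the threshold. Slc25a37 passed without muscle replicate 1, 3, 4 or 5 or mitochondria replicate 2 (edgeR adjusted p = 0.0425, 0.0154, 0.00806, 0.0439 and 0.0452), and Slc25a24 without muscle replicate 2 or 3 (edgeR adjusted p = 0.041 and 0.0422). Depth limits the mitochondria side, where 33 of the 45 members had fewer than 50 counts in every library.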

Other observations

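Some carriers neighbour each other in the RefSeq gene order (GRCr8), which was looked up after the values were known. Slc25a23 and Slc25a41 have no annotated gene between them, nor have Slc25a24 and Slc25a54. Each pair joins a carrier with reads in muscle and one almost without. Slc25a41 had 26.9 ± 3.61 nuclear CPM in mitochondria, against 0.0107 ± 0.0262 in muscle, while Slc25a23 had 48.1 ± 5.84 nuclear CPM in mitochondria, against 60.3 ± 5.72 in muscle (SD, n = 6 each). Slc25a54 had 19.02 ± 5.75 nuclear CPM in mitochondria, against 0.00861 ± 0.0211 in muscle, and Slc25a24 had 33.1 ± 7.98 nuclear CPM in mitochondria, against 6.23 ± 1.27 in muscle. Slc25a29 and Slc25a47 have 2 annotated genes between them and Slc25a43 and Slc25a5 have 5, none of them protein coding. Slc25a47 had 41.04 ± 8.33 nuclear CPM in mitochondria and no muscle count, and Slc25a29 had 28.4 ± 2.69 nuclear CPM in mitochondria, against 5.64 ± 1.603 in muscle. Slc25a43 had 13.3 ± 3.32 nuclear CPM in mitochondria, against 0.116 ± 0.112 in muscle, and Slc25a5 had 9.53 ± 4.17 nuclear CPM in mitochondria, against 34.7 ± 6.96 in muscle. These are shares of reads, not divided by length.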
